A study of Rattus norvegicus with 9 samples.

Results

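Leukocyte genes, 9 in number, were followed across 9 rat livers: Slpi, Ly6c, Ptprc, S100a8, S100a9, Mmp8, Cxcr2, Itgam and Coro1a. They were found by the RefSeq accession of the array's probes, which gave 12 probes for the 9 genes, among 41012 probes and 13438 named genes in all. Liver RNA came from male Wistar rats, 1 array per rat, in 3 groups of 3: control rats, rats exposed to 6.5 Gy of total-body irradiation (TBI) from a 60Co source at 2 Gy/min, and rats given Hong Shan Capsule (HSC, a herbal preparation) by stomach tube for 3 days before the same exposure (HSC+TBI). All livers were taken at 24 h. The sample labels give 30 mg/kg/day of HSC, the series text 10 g/kg/day, and the dose entered no calculation. No group received HSC without irradiation, and the labels do not say whether the controls received the vehicle. The members were chosen by values measured in these same rats, above all the low Slpi of HSC+TBI against control and the low Ptprc and Ly6c of HSC+TBI against TBI, so those 3 differences are given without a test.

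Neutrophils are short-lived granulocytes that leave the marrow, circulate, and enter tissue by rolling on selectins and holding on through integrins. They follow chemokines read by Cxcr2, and kill with granule proteases, S100 proteins and the oxygen radicals of the NADPH oxidase. The liver also holds resident macrophages (Kupffer cells), natural killer cells and lymphocytes, which use many of the same genes. Whole liver was measured, so fewer cells of a type and less RNA per cell cannot be told apart.

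Signals are log2 values after quantile normalization. Testing took the probes that stood well above background in every rat of 1 group or more, which were 25369 probes and 9604 named genes. A call needed a fold of at least 1.5 and, in limma, a p under 0.05 after Benjamini-Hochberg adjustment. Of the 9 genes, 7 were tested. Between 57.2% and 70.1% of spots were well above background on an array, with the 3 TBI arrays highest (64.1% to 70.1%). The control rats lay on slide 1, the TBI rats on slide 2 and the HSC+TBI rats on slides 3 and 4, so slide and group cannot be told apart. Nothing in the labels ties the rats to separate cages or litters.

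The name neutrophil was weakly backed by the array. Mmp8, the neutrophil collagenase, was not well above background on any of the 9 arrays. Cxcr2, the receptor for the neutrophil chemokines, was above background on the array of rat TBI 3 alone, at 5.01, and lay between 1.26 and 1.92 on the other arrays, so neither gene was tested. Of 18 granule and secreted proteins of neutrophils with a named probe, 3 were above background on no array (Elane, neutrophil elastase, Ctsg, cathepsin G, and Olfm4) and 7 on all 9. Of 18 neutrophil receptor and response genes, 5 were above background on no array (Cxcr1, Ltb4r, Clec4d, Clec4e and Gfi1) and 6 on all 9. Csf3r, the receptor for granulocyte colony-stimulating factor, Fpr1, Camp and Mmp9 were each above background on 1 array. Mpo and Ltf had no named probe and were not measured. The granule genes Prtn3, Np4 and Pglyrp1 were above background on all 9 arrays. Their means in control, TBI and HSC+TBI were 6.43, 6.88 and 6.89 (Prtn3), 8.3, 8.02 and 8.22 (Np4), and 4.9, 4.9 and 4.82 (Pglyrp1). The other genes that were measured on all 9 arrays are mostly shared with macrophages or other leukocytes, so the set is best read as leukocyte genes.

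**Figure D1:**
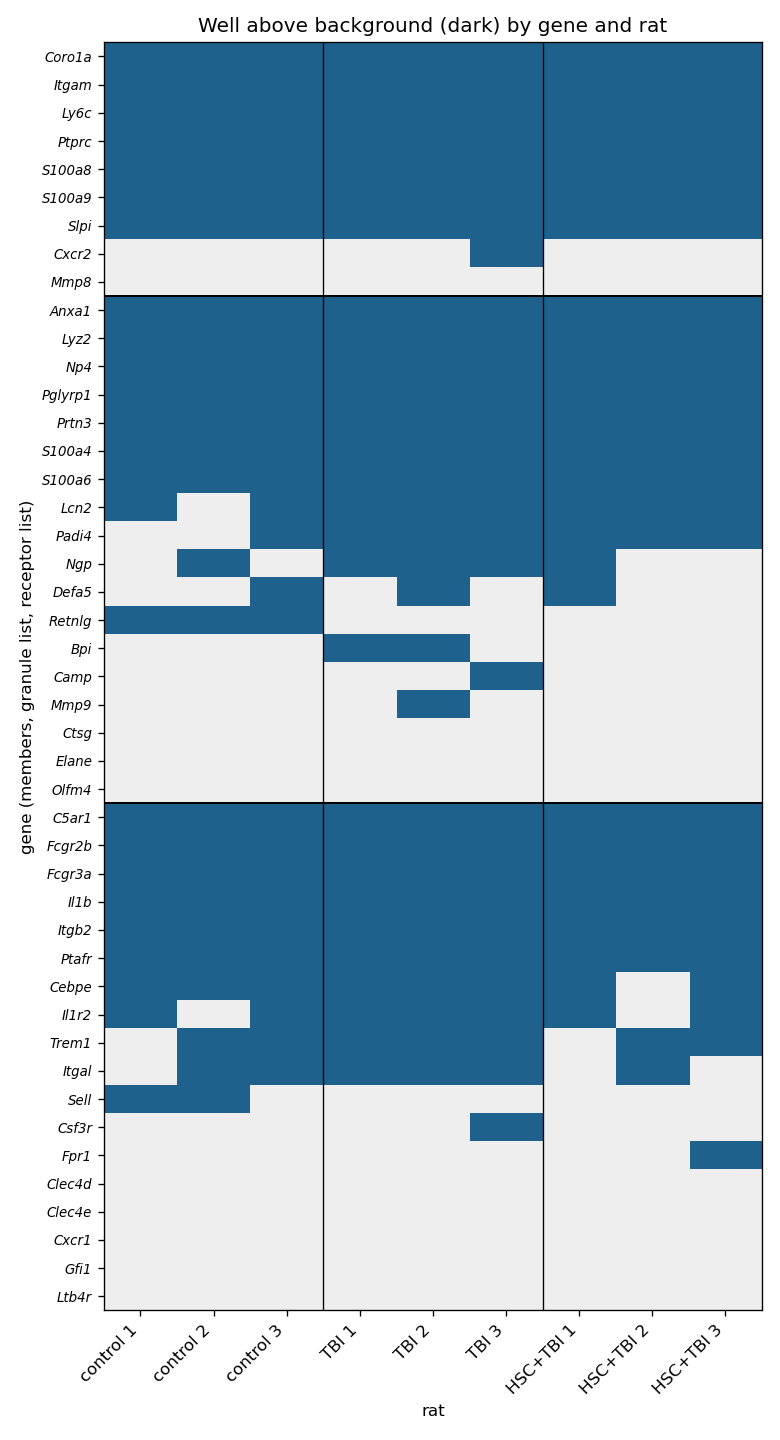
Genes (rows: the 9 members, then the granule list, then the receptor list) that were well above background (dark) or not (light) in each of the 9 rats (columns, in 3 groups of 3). Elane, Ctsg and Cxcr1 are light in every rat, and Retnlg is dark in the 3 control rats and light in the other 6.

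RefSeq promoters (assembly GRCr8) were at hand for 6 members. They are shown for the 3 whose 250 bases before the start hold the letters GAGGAA, the core of sites for PU.1 (Spi1), the factor that drives myeloid genes. Capitals mark a match on either strand.
Itgam, chr1:192089342-192089591, plus strand: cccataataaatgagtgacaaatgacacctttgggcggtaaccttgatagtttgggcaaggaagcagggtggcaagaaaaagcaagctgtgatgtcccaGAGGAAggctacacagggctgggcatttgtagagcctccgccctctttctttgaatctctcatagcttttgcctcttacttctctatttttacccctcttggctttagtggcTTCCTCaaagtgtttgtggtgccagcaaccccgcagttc
Ptprc, chr13:52259747-52259996, minus strand: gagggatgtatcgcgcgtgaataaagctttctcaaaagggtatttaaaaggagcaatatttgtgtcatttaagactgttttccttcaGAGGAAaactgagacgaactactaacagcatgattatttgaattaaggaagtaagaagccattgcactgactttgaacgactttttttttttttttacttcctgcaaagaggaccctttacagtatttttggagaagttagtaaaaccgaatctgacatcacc
S100a9, chr2:178490623-178490872, minus strand: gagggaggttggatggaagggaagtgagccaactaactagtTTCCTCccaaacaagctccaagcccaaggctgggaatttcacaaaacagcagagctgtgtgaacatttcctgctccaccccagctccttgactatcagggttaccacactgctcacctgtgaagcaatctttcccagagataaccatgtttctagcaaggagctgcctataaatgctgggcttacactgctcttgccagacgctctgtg
The match starts 151 bases before the start of Itgam, with another on the opposite strand at 39, 163 before that of Ptprc, and 209 before that of S100a9 on the opposite strand. The same letters stand on either strand in 23.3% of all 33469 promoters of this length. The letters TTGCGCAA, a palindromic site of the C/EBP factors, were in none of the 6 and in 0.14% of all promoters. A match is a description of these letters and not a site.

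Slpi encodes the secreted inhibitor of neutrophil elastase and cathepsin G, made by neutrophils, macrophages and epithelia. Its brighter probe read 11.85, 12.47 and 12.63 in the control rats, 9.63, 12.29 and 11.10 in the TBI rats, and 8.50, 8.58 and 8.77 in the HSC+TBI rats. All 3 HSC+TBI rats lay below the other 6, while TBI and control overlapped. The mean of HSC+TBI differed from control by -3.70 log2 units, which is the difference that chose the gene. HSC+TBI differed from TBI by -2.39 (SE 0.56, limma adjusted p = 0.101) and TBI from control by -1.31 (SE 0.56, adjusted p = 0.187), so neither passed. The second Slpi probe gave differences of -3.80, -2.42 and -1.38 in the same order.

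Ly6c encodes a surface antigen of monocytes, granulocytes and some lymphocytes. It read 8.89, 10.30 and 10.15 in control, 8.99, 10.00 and 9.64 in TBI, and 6.44, 7.19 and 7.38 in HSC+TBI. The HSC+TBI rats again lay below the other 6, and control and TBI overlapped. HSC+TBI differed from TBI by -2.54 log2 units, the difference behind its choice. Against control Ly6c fell by 2.78 after HSC+TBI (SE 0.43, limma adjusted p = 0.0121). That test uses the same low HSC+TBI values that chose the gene, so no support is drawn from it. TBI and control differed by -0.24 (95% interval -1.21 to 0.73, adjusted p = 0.762). Ly6c has close relatives in the rat genome, and the probe may read more than 1 of them.

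Ptprc encodes CD45, the phosphatase on all nucleated blood cells, and has 3 probes. The brightest read 7.28, 8.18 and 7.63 in control, 6.84, 7.93 and 7.69 in TBI, and 6.40, 6.02 and 6.79 in HSC+TBI. The highest HSC+TBI rat lay just under the lowest TBI rat. For the 3 probes HSC+TBI differed from TBI by -1.08, -1.75 and -1.30, a difference that chose the gene, and from control by -1.29, -1.28 and -1.34. Only the second probe was called against control (limma adjusted p = 0.0157, against 0.0805 for the brightest). These tests share the HSC+TBI rats with the difference that chose the gene, so no support is drawn from them. The probes disagreed on TBI against control, at -0.21, 0.47 and -0.04, none of them called.

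Coro1a, a leukocyte actin-binding protein, was the member with a stepwise order. It read 10.37, 10.84 and 10.83 in control, 8.93, 9.80 and 9.43 in TBI, and 8.16, 8.23 and 8.18 in HSC+TBI, with no overlap between any groups. It fell by 1.29 log2 units after TBI (2.45-fold, SE 0.22, limma adjusted p = 0.0123) and by 2.49 after HSC+TBI against control (5.60-fold, SE 0.22, adjusted p = 0.000998). Between HSC+TBI and TBI the difference was -1.19 (limma adjusted p = 0.0577). Without rat control 3 the first of these calls was lost.

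Itgam encodes CD11b, the chain that pairs with Itgb2 to form the adhesion receptor Mac-1. It read 5.98, 7.02 and 6.75 in control, 6.67, 8.46 and 8.09 in TBI, and 5.73, 5.98 and 4.65 in HSC+TBI. TBI had the highest mean and HSC+TBI the lowest. TBI differed from control by 1.15 (SE 0.52, limma adjusted p = 0.207), and HSC+TBI from TBI by -2.29 (SE 0.52, adjusted p = 0.0949) and from control by -1.13 (adjusted p = 0.274). No Itgam difference passed.

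S100a8 and S100a9 encode the calcium-binding partners that form calprotectin, a main protein of the neutrophil cytosol. S100a8 read 7.39, 6.65 and 7.66 in control, 6.99, 7.39 and 7.08 in TBI, and 5.95, 6.50 and 6.58 in HSC+TBI. S100a9 read 8.41, 7.22 and 8.65 in control, 7.85, 9.22 and 8.60 in TBI, and 7.22, 7.44 and 7.58 in HSC+TBI. For both genes every HSC+TBI rat lay below every TBI rat, and rat control 2 was the lowest control. HSC+TBI differed from TBI by -0.81 for S100a8 (95% interval -1.43 to -0.18, limma adjusted p = 0.205) and by -1.14 for S100a9 (-2.10 to -0.19, adjusted p = 0.231). Against control the differences were -0.89 and -0.68 after HSC+TBI (limma adjusted p = 0.123 and 0.417) and -0.08 and 0.46 after TBI (0.872 and 0.529), none of them called.

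**Figure D2:**
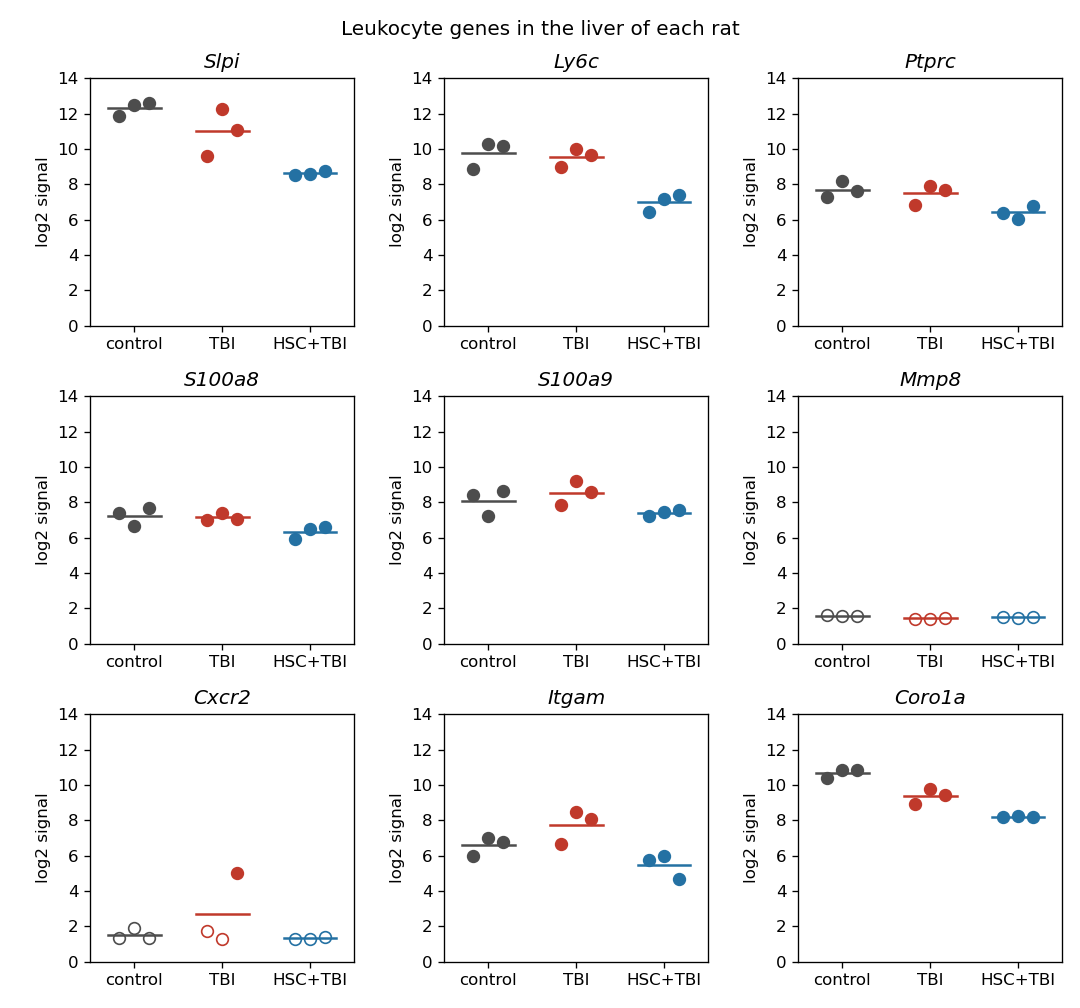
Log2 signal of each member in each rat, brightest probe, in the 3 groups of 3 rats. Filled points are well above background, open points are not, and lines are group means. The HSC+TBI points of Slpi, Ly6c and Coro1a lie below all the others.

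**Figure D3:**
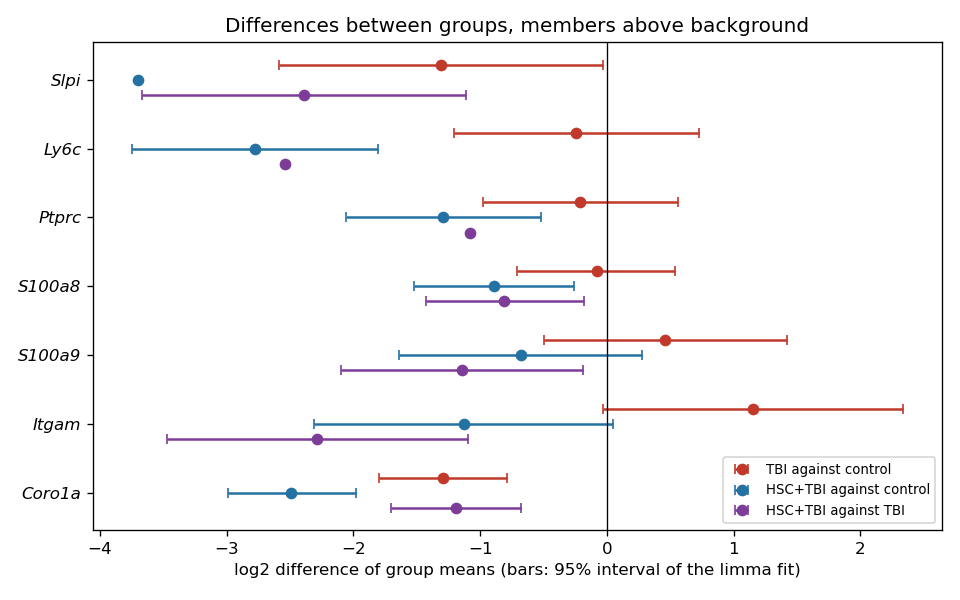
Log2 difference of group means for the 7 tested members in the 3 comparisons, with the 95% interval of the limma fit. Slpi in HSC+TBI against control, and Ly6c and Ptprc in HSC+TBI against TBI, chose the genes and carry no interval. The points of HSC+TBI against control and against TBI lie left of 0 for all 7, and those of TBI against control lie on both sides.

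By the thresholds above, 1 of 7 tested members was lower after TBI than in control (Coro1a), where 3.92% of all named genes were. Leaving out Slpi, which that difference chose, 2 of 6 were lower after HSC+TBI than in control (Ly6c, Coro1a), against 2.71% of genes. Leaving out Ly6c and Ptprc for the same reason, none of 5 was called lower in HSC+TBI than in TBI, against 0.521%. All 5 were lower at an unadjusted limma p under 0.05, where 7.9% of the 8535 genes measured in all 9 rats were. No tested member was called higher in any comparison. Since earlier results chose the members, nothing is read from these counts, and the comparisons share rats. The same holds for overlap, again without the genes that each difference chose. HSC+TBI lay wholly below control for Ly6c, Ptprc, S100a8, Itgam and Coro1a but not S100a9, as it did for 16.9% of all genes. It lay wholly below TBI for Slpi, S100a8, S100a9, Itgam and Coro1a, as it did for 11% of all genes.

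Among the TBI rats the members, each read by its brightest probe, kept 1 order. Rat TBI 1 was the lowest TBI rat and TBI 2 the highest for all 7, where TBI 1 was lowest for 29.6% and TBI 2 highest for 25.4% of 9598 tested genes. The second probe of Ptprc did not keep this order, at 6.18, 6.03 and 6.03 in TBI 1, TBI 2 and TBI 3. The second probe of Slpi and the third of Ptprc kept it. In the other groups no order held for all 7. Control 1 was the lowest control for 5 of 7 (35.4% of all genes). HSC+TBI 1 was the lowest HSC+TBI rat for Slpi, Ly6c, S100a8, S100a9 and Coro1a, HSC+TBI 2 for Ptprc and HSC+TBI 3 for Itgam. Among the 52 companion genes described below, TBI 1 was lowest for 80.8%, TBI 2 highest for 61.5% and control 1 lowest for 78.8%. Over the 9 rats, Slpi correlated with Coro1a at r = 0.97, Ly6c at 0.92 and Ptprc at 0.91, S100a8 with S100a9 at 0.86, and S100a9 with Coro1a at 0.46. These values rest on 9 points in 3 groups and describe mostly the group means. The named genes most like Slpi were Tlnrd1 (r = 0.986) and Myo1g (0.981), an unconventional myosin of leukocytes. The most like were Relt (0.986) and Cotl1 (0.985) for Ly6c, Tasl (0.992) and Fcgr3a (0.988) for Ptprc, Cuedc2 (0.994) and Myo1g (0.984) for Coro1a, Laptm5 (0.968) and Axl (0.968) for Itgam, Bgn (0.944) and Myl12a (0.921) for S100a8, and Kat5 (0.903) and Ccdc102a (0.88) for S100a9, among 9591 candidates.

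Companion genes were taken from 6 lists of 100 genes by role, of which 85 had a named probe and 61 were tested. Of the 61, 52 were above background in all 9 rats. The other 9 entered the test only through a group in which every rat was above background, so nothing is read from their calls, and counts and medians are taken over the 52 and set against the 8535 genes measured in all 9 rats.

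After TBI 1 of the 52 was lower than control (against 3.66% of those genes) and 2 were higher (against 2.95%). After HSC+TBI 3 were lower than control (against 2.39%) and none higher (against 1.11%). By an unadjusted limma p under 0.05, 26 of 52 were lower, where 11.5% of genes were, and 1 was higher. HSC+TBI against TBI gave 1 lower (against 0.258%) and none higher (against 0.141%). At the unadjusted p, 35 of 52 were lower, where 7.9% of genes were, and none higher. The median difference of the 52 was 0.18, -0.54 and -0.92 in that order, where that of the 8535 genes was -0.0121, 0.017 and 0.035. HSC+TBI lay below control in 44 and below TBI in 47 of 52. The lists were chosen with earlier results of these data known, and the limit to the 52 was set after the values were seen. Their genes also vary together between rats. Nothing is therefore read from these counts, here or list by list below. Counted over all 61, 2 were lower (3.92% of all tested genes) and 3 higher (3.87%) after TBI, 4 lower (2.71%) and none higher (1.18%) after HSC+TBI, and 2 lower (0.521%) and none higher (0.271%) in HSC+TBI against TBI, with Retnlg and Trem1 as the calls outside the 52.

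Of the granule and secreted proteins 7 were measured in all 9 rats, with medians of 0, -0.08 and -0.15 and none called. Retnlg, a resistin-like protein of rodent neutrophils, read 5.2, 4.44 and 4.90 in control and was not well above background in any irradiated rat. It was at least 4.08-fold lower after TBI and at least 2.34-fold lower after HSC+TBI, bounds in which the dim arrays enter at their detection limit. Retnlg entered the test through the control rats alone, where it is high, so no p is given. Lyz2, lysozyme of macrophages and neutrophils, read 10.95, 11.13 and 11.31 in control, 10.78, 12.03 and 12.28 in TBI, and 10.14, 10.61 and 10.18 in HSC+TBI (HSC+TBI against TBI -1.39, adjusted p = 0.12).

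Of the receptors and response genes 6 were measured in all 9 rats, with medians of 0.92, -0.22 and -1.13. Itgb2, the CD18 chain that pairs with Itgam, read 9.06, 9.32 and 9.07 in control, 9.66, 10.27 and 10.12 in TBI, and 8.81, 9.14 and 8.86 in HSC+TBI. It rose by 0.87 after TBI (1.82-fold, SE 0.18, limma adjusted p = 0.0233) and differed by -1.08 between HSC+TBI and TBI (2.11-fold, adjusted p = 0.0435). Trem1, an amplifying receptor of neutrophils and monocytes, read 4.03, 5.33 and 5.14 in control, 5.98, 6.64 and 6.73 in TBI, and 3.91, 4.67 and 4.44 in HSC+TBI. Rats control 1 and HSC+TBI 1 were not above background, so Trem1 entered the test through TBI alone, where it is high, and its differences of 1.62 after TBI and -2.11 between HSC+TBI and TBI are given without a p. Il1b, the inflammatory cytokine, read 9.73, 12.09 and 11.90 in the TBI rats against 9.25 to 9.83 in control, and was not called (1.69, adjusted p = 0.0925).

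The NADPH oxidase list held 5 genes measured in all 9 rats, none called, with medians of 0.31, -1.15 and -1.44. All 5 lay below 0 in both comparisons of HSC+TBI. Ncf1, the p47 subunit, read 7.26, 8.24 and 7.81 in control, 7.26, 8.77 and 8.53 in TBI, and 6.51, 6.70 and 6.66 in HSC+TBI (HSC+TBI against TBI -1.57, SE 0.39, limma adjusted p = 0.114). Cybb, the membrane catalytic subunit, differed by 0.92 after TBI (limma adjusted p = 0.241) and by -1.31 between HSC+TBI and TBI (0.206).

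Of the pan-leukocyte genes 19 were measured in all 9 rats, with medians of 0.18, -0.89 and -1. All 19 lay below 0 in HSC+TBI against control, 12 with an unadjusted limma p under 0.05 (11.5% of genes measured in all 9 rats were lower at that p) and 1 called, the surface glycoprotein Cd52 (-1.76, 3.38-fold, adjusted p = 0.0495). Groups did not overlap in 16 of 19 (16.9% of all genes). Fcer1g, the signalling chain of Fc receptors, differed by -1.35 (limma adjusted p = 0.0927), and Spi1, the PU.1 factor itself, by -1.13 (adjusted p = 0.175).

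Of the monocyte genes 4 were measured in all 9 rats, with medians of -0.38, -1.21 and -0.89. Fcnb, a ficolin of the lectin complement pathway, read 8.62, 8.85 and 8.52 in control. In TBI it read 6.87, 7.27 and 7.36, and in HSC+TBI 6.30, 7.03 and 6.61. It fell by 1.49 after TBI (limma adjusted p = 0.00556) and by 2.01 after HSC+TBI (4.03-fold, adjusted p = 0.00214). Plac8 read 12.77, 13.81 and 13.43 in control and 11.35, 11.38 and 11.59 in HSC+TBI, and fell by 1.90 (3.73-fold, adjusted p = 0.0183).

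Among the ligands, endothelial and partner genes (11 measured in all 9 rats, medians 0.12, -0.40 and -0.59), Cxcl2, a ligand of Cxcr2, read 4.39, 5.67 and 4.23 in control, 6.37, 6.95 and 6.93 in TBI, and 5.64, 5.97 and 4.98 in HSC+TBI. It rose by 1.99 after TBI (3.97-fold, SE 0.40, limma adjusted p = 0.0214), with a difference of 0.77 after HSC+TBI (adjusted p = 0.335). Cxcl1, another ligand, differed by 0 after TBI and by -1.40 after HSC+TBI (limma adjusted p = 0.999 and 0.242).

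**Figure D4:**
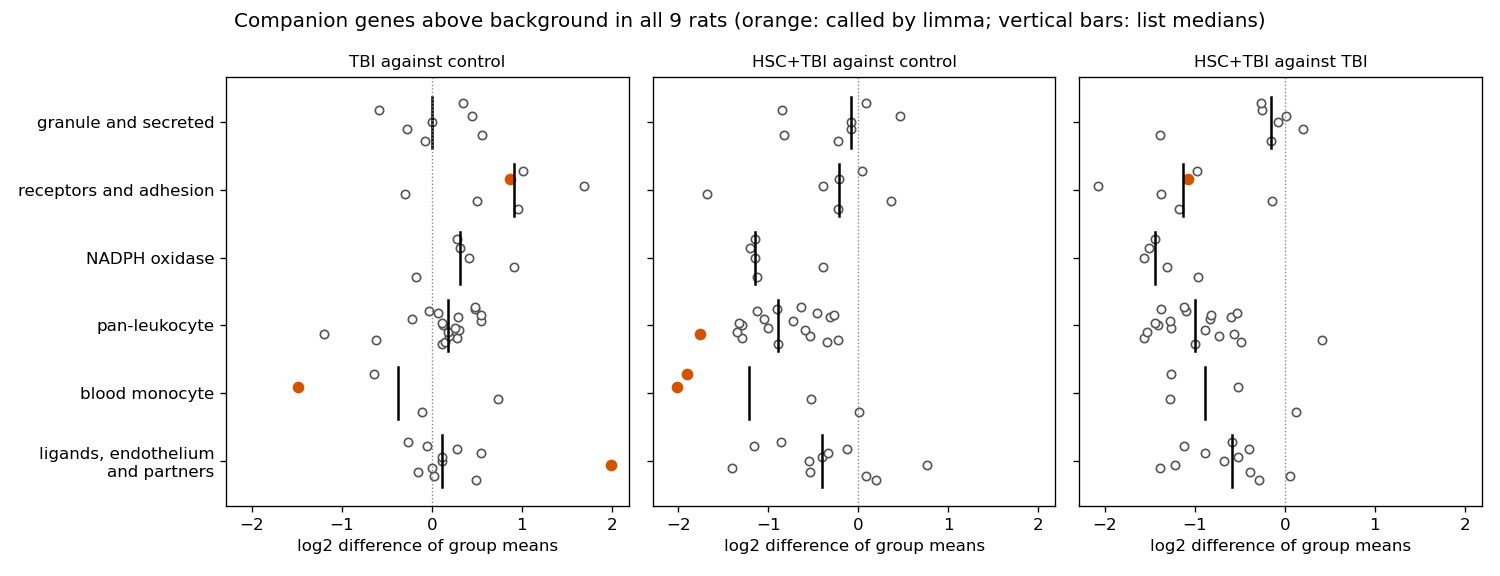
Log2 difference of group means for the 52 companion genes above background in all 9 rats, by list, in the 3 comparisons. Orange points were called by limma, open points were not, and vertical bars are list medians. In HSC+TBI against TBI, 47 of 52 points lie left of 0.

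The calls between HSC+TBI and TBI depended on single rats. Without rat TBI 1, 25 of the 52 companions were called in that comparison, along with Slpi, Itgam and Coro1a among the 5 members it did not choose, and the share called among all tested genes rose from 0.791% to 4.33%. In TBI against control 12 of 52 were then called, where all genes went from 7.79% to 7.68%. Without any other single rat none of the 52 and none of those 5 members was called between HSC+TBI and TBI, and the share of all genes lay between 0.0937% and 2.29%. Against control after HSC+TBI, the call of Ly6c was lost without control 3 or HSC+TBI 1, with differences of -3.22 to -2.50 over the 9 omissions. That of Cd52 held in 2 of 9 omissions (without TBI 1 or TBI 3, range -2.01 to -1.57), and that of Plac8 in 4 of 9 (lost without control 2, control 3 or any HSC+TBI rat, range -2.18 to -1.66). After TBI, the calls of Itgb2 and Cxcl2 were lost without control 1, control 3 or TBI 2 (ranges 0.74 to 1.04 and 1.72 to 2.44). For Coro1a the difference after TBI ranged from -1.50 to -1.07. Coro1a after HSC+TBI, and Fcnb in both comparisons with control, were called in all 9.

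**Figure D5:**
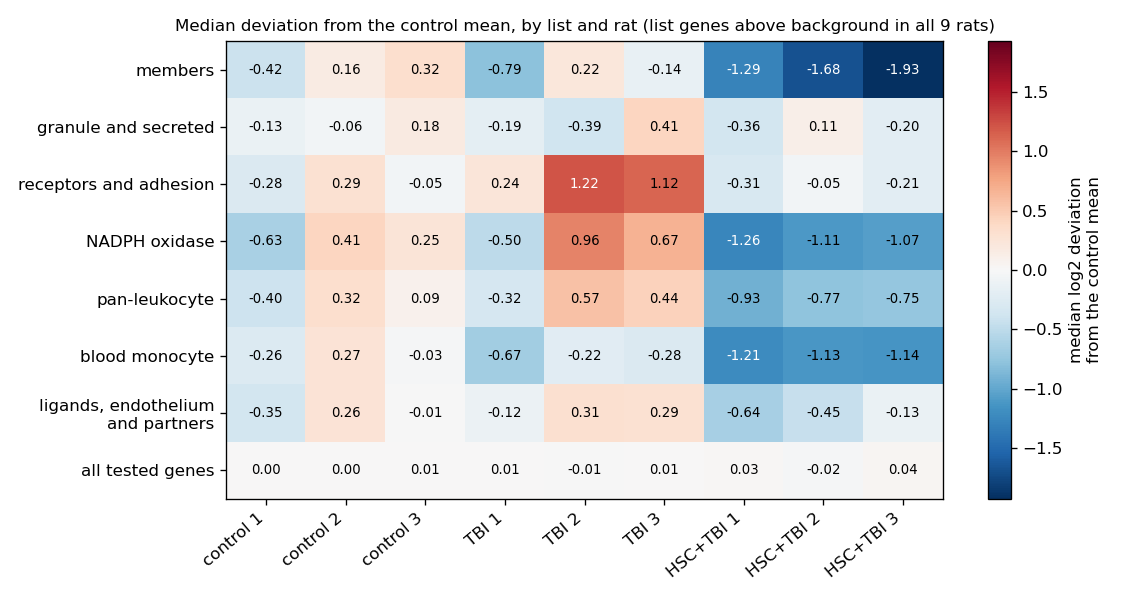
Median log2 deviation from the control mean over the genes of each list measured in all 9 rats (rows, the last over all tested genes), in each rat (columns). The members range from -1.93 to -1.29 in the HSC+TBI rats, TBI 1 lies below TBI 2 and 3 in each list but the granule list, and all tested genes stay between -0.02 and 0.04.

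Markers of other liver cells were summed on the linear scale. The sums are given for control, TBI and HSC+TBI in that order. The part of these cell types in the differences above was not tested.

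The 5 measured markers of Kupffer cells summed to 46100 to 66200, 45600 to 85200 and 31800 to 34900, and none was called. Most of that sum is Clec4f (control mean 15.47 log2, against 12.86 or less for the others), which differed by -0.75 between HSC+TBI and control and by -0.86 between HSC+TBI and TBI. Marco differed by -0.57 and -1.21 and Cd68 by -0.63 and -1.10, while Cd163 differed by -0.18 and -0.14 and Vsig4 by -0.17 and -0.45. The natural killer cell markers summed to 1080 to 2350, 635 to 2030 and 393 to 658, none called. The Kupffer sums of the HSC+TBI rats lay below those of the other 6 rats, and the natural killer sums overlapped with TBI.

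The T cell markers summed to 604 to 837, 342 to 525 and 330 to 428, low after TBI already. Most of that sum is Cd3d (control mean 8.66 log2, against 7.13 or less for the others). Against control Cd3d differed by -0.79 after TBI and -0.76 after HSC+TBI, and Cd8a by -0.90 and -1.64. Lck differed by 0.55 and 0.41 and Cd4 by 0.71 and -0.13, and none of these was called. Cd2 was at least 5.13-fold lower after TBI than in control. It read 1.16, 1.15 and 1.85 in TBI, never above background, and 4.76, 3.41 and 3.40 in HSC+TBI. Of the HSC+TBI rats only HSC+TBI 1 was above background, so the higher Cd2 of HSC+TBI than of TBI rests on that rat and no bound is given. Cd3g read 7.04, 7.28 and 7.06 in control and 2.81, 4.10 and 3.65 in TBI, and was at least 11.4-fold lower after HSC+TBI. Both entered the test through the control rats alone. The B cell markers summed to 3820 to 6260, 1980 to 42500 and 1410 to 1550, with Cd79b above background in the control rats alone. Most of that sum is Cd74 (control mean 12.27 log2, against 7.07 or less for the others), so the sums describe Cd74. Against control Cd74 differed by 1.56 after TBI and -1.86 after HSC+TBI, and Cd22 by 0.55 and -0.14, none of these called. Their wide range in TBI is Cd74, which read 15.27 and 15.37 in rats TBI 2 and TBI 3 and 10.83 in TBI 1. The erythroid markers summed to 2030 to 4980, 1340 to 2730 and 1050 to 1850, and those of platelets to 419 to 498, 441 to 812 and 324 to 384, with none called. Most of the erythroid sum is Hbb (control mean 11.32 log2, against 8.88 or less for the others). Against control Hbb differed by -1.30 after TBI and -1.59 after HSC+TBI, Alas2 by -1.15 and -1.96 and Ahsp by -1.06 and -0.98. Slc4a1 went the other way, by 1.53 and 0.63. Sinusoidal endothelial markers summed to 2000 to 2630, 2910 to 3490 and 2850 to 3120, and none was called. Most of that sum is Lyve1 (control mean 11.05 log2, against 7.52 or less for the others), so the higher sums of both irradiated groups describe Lyve1. Against control Lyve1 differed by 0.53 after TBI and 0.40 after HSC+TBI, Cdh5 by -0.27 and -0.67, and Pecam1 by 0.12 and -0.40. The hepatocyte markers, 7 of 7 above background in each group, summed to 1070000 to 1120000, 951000 to 1130000 and 1050000 to 1120000, and of these Tat alone was called (1.53 after TBI, limma adjusted p = 0.0287). The neutrophil list itself, 8 of 10 with a named probe and 3 above background in control, summed to 288 to 646, 376 to 782 and 226 to 302. Most of that sum is S100a9 and S100a8 (control means 8.09 and 7.23 log2, against 4.85 or less for the others). Both are members, so the sum restates their values and is not a separate check.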

How the data were processed

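Liver RNA of 9 rats was hybridized to 1-colour Agilent arrays, 1 array each. Per the file headers, the authors read spot intensity with Agilent Feature Extraction 10.7.3.1, and the deposited quality flags come from the same step. The authors also deposited log2 values normalized by quantiles. Here processed signals, with a floor of 1, were log2-transformed, freed of outlier spots, normalized by quantiles and averaged per probe in R 4.3.3. They differed from the authors' values by a median of 0.029 to 0.032 on an array. A probe was above background where more than 0.5 of its spots carried the flag. Gene names came from RefSeq (GRCr8) by accession, for 16968 of 41012 probes, and a gene was read by its brightest tested probe. Counts and medians over the companion lists were limited, after the values were seen, to genes above background in all 9 rats. Groups were compared in 1 limma 3.58.1 fit with Benjamini-Hochberg adjustment over 25369 probes, at 0.05 and 1.5-fold. The fit was tested on simulated data. The smallest two-sided p of an exact permutation test on 3 against 3 rats is 0.1, and the number of arrays limits the precision.

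The members and lists were chosen with earlier results of these data known. Named genes are all members, called companions and otherwise up to 4 per list with the largest differences in a comparison, and the 2 genes most like each member. Spi1, Cd74, the other B cell and erythroid markers and the neutrophil genes given for their detection were named after their values were seen. No protein sequences were used here. Alternatives were a 75th percentile shift, normexp with an offset of 50 (on spot medians), the authors' values, other filters on dim probes, outlier spots kept, 2 groups per fit, the methods' t-test, no minimum fold, the replicate number or slide as a block, any probe of a gene, and each rat left out. The methods do not state the form of the t-test. The form with equal variances on log2 values was set first. All 4 combinations of equal or unequal variances and log2 or linear signals were then counted and set against earlier counts of these data, and the form with unequal variances on log2 values, whose totals lay nearest to those counts, was added after seeing the data.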

Additional observations from a re-analysis of the deposited data

Results flagged for a closer look

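Itgb2 differed between the irradiated groups. Against control it was 0.87 higher after TBI and -0.21 after HSC+TBI, and the difference of these was -1.08 (log2, limma adjusted p = 0.0435, every HSC+TBI rat below every TBI rat). Over the alternatives the adjusted p ranged from 0.00213 to 0.558. Trem1 met the same thresholds, at 1.62 after TBI, -0.49 after HSC+TBI and a difference of -2.11 with every HSC+TBI rat below every TBI rat. It entered the test through TBI alone, where it is high, since rats control 1 and HSC+TBI 1 were not above background, so its call carries no weight.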

How the results depend on the processing

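Companions are counted here over all 61 tested and members over all 7, those chosen by a contrast included. No called difference changed direction under the alternatives run. Counts are given for HSC+TBI against TBI, then HSC+TBI against control, then TBI against control. With normexp 0, 2 and 3 companions were called, and 0 members in the first. The share of all genes called was then 0.0416%, 2.7% and 3.68%, from 0.791%, 3.88% and 7.79%. In HSC+TBI against TBI, 0 companions and 0 members were called without a filter on dim probes (0.253% of all genes). The same held with the filter set to all 9 arrays (0.129%) and with 2 groups per fit (0.187%). TBI against control gave 3 companions with the filter set to all 9 arrays (6.88% of all genes) and 3 with 2 groups per fit (5.01%). HSC+TBI against control gave 9 with 2 groups per fit (5.14%). The 75th percentile shift (1.03%) and any probe of a gene gave 2 members each in HSC+TBI against TBI.

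The methods' t-test with equal variances and unadjusted p called 22, 21 and 5 companions and 6, 4 and 1 members, and with adjusted p 0, 1 and 1 companions and 0, 2 and 0 members. With unequal variances, added after seeing the data, it called 7, 11 and 5 companions and 4, 4 and 1 members unadjusted, and 0 companions and 0 members adjusted in each comparison. Over all probes the equal form gave 1363, 2060 and 2566 unadjusted and 2, 100 and 145 adjusted calls, the unequal form 933, 1693 and 2123 and 0, 2 and 7. On linear signals the counts were 1147, 1901 and 2395 (equal, unadjusted) and 741, 1356 and 1869 (unequal, unadjusted).

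The replicate number as a block gave 3, 11 and 6 companions and 1, 3 and 1 members. Same-numbered rats correlated at -0.144 to 0.191 in their deviations, so the numbers were not taken as pairs. The slide as a random block gave 34, 28 and 16 companions and 7, 6 and 3 members, with a consensus correlation of -0.327, a negative value that narrows the error between slides and hence between groups. Only the HSC+TBI group lay on more than 1 slide, so that correlation rests on its 3 arrays. Nothing is read from these counts. The share of all genes called rose with it to 9.1%, 11.5% and 17.6%, from 0.791%, 3.88% and 7.79%.

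Leaving out 1 rat, companions called ranged from 0 to 26, 2 to 11 and 2 to 14, and members from 0 to 5, 1 to 4 and 0 to 2. Under normexp, Slpi in HSC+TBI against control moved to -3.32, and Ly6c and Ptprc in HSC+TBI against TBI to -1.87 and -0.59. Normexp also moved Retnlg to -0.47 after HSC+TBI and -0.41 after TBI, Trem1 to -0.57 between HSC+TBI and TBI and 0.49 after TBI, Cd52 to -0.67 after HSC+TBI and Itgb2 to -0.93 between HSC+TBI and TBI, and all of these lost their calls. Cxcl2 after TBI moved to 0.66 and Fcnb to -1.28 after HSC+TBI and -0.97 after TBI, and these stayed called. The cause of these changes was not tested. Signals near background limit Mmp8, Cxcr2, Retnlg and Trem1.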
